A study of Mus musculus with 8 samples.

Results

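Apoe, Krtdap, Prap1 and Afp encode proteins that cells secrete, and were chosen by their levels, which differed widely between control and Snf5 CKO germ cells. In each deposited table they are the rows whose gene name is one of these 4 symbols, out of 24243 gene names in the female table and 23906 in the male table, and each symbol has 1 row in each table. Because these levels chose the set, the members' own differences are given as a description and without a test. Tests were run on genes that the choice did not use.

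Germ cells were sorted from E15.5 mouse gonads by green fluorescence of an Oct4-EGFP transgene, which all groups carry, and RNA-Seq gave 8 libraries, with 2 controls and 2 Snf5 CKO libraries in females and as many in males. Snf5, listed in the tables as Smarcb1, is a core part of SWI/SNF, a complex that shifts nucleosomes. The Snf5 CKO embryos carried Snf5 fx/Δ with TNAP-Cre, a Cre knocked into the Alpl gene that recombines in primordial germ cells and not in every cell. Control libraries were a mixture of Snf5 fx/+, of Snf5 fx/Δ and of Snf5 fx/+ with TNAP-Cre cells, so that part of the control cells also had 1 deleted allele or the Cre. The labels give the strain as C57BL/6 while the methods describe a mixed background. Female libraries and male controls pooled embryos, while each male Snf5 CKO sort that the paper lists came from 1 embryo. Pooling thus differed by genotype in males. The paper also lists a high purity for every sort, with male controls and male Snf5 CKO sorts in an overlapping range. The 2 libraries of a group were described as biological duplicates. Levels are FPKM, fragments scaled by transcript length and library depth, from a separate Cufflinks run for each sex, so sexes are set side by side without a test of their difference. Smarcb1 was listed at 23.4 and 22.3 FPKM in female controls and at 4.24 and 2.47 FPKM in female Snf5 CKO libraries, and at 141 and 167 FPKM against 8.73 and 10.1 FPKM in males. Its log2 difference, Snf5 CKO minus control on the log2(FPKM + 1) scale, was -2.48 in females (limma, adjusted p = 0.000269) and -3.90 in males (limma, adjusted p = 0.00212). The gene value covers all exons, so the deleted exon itself was not checked.

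As background, secreted proteins of this kind are used as marks of cell identity, since each is made in quantity by few tissues. Apoe is the apolipoprotein through which lipoprotein particles bind their receptors on cells, and is made by liver, macrophages and glia. Krtdap is a small protein that differentiating keratinocytes release, and its gene lies with Dmkn and Sbsn in a cluster active in stratified epithelia. Prap1 is a proline-rich acidic protein of gut and uterine epithelium. Afp is the albumin-family protein that fills fetal serum, made by the yolk sac and the fetal liver. None of the genes is a defining gene of germ cells.

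The stretches just before the transcript starts are printed to show how unlike the members are at their promoters. Each is the 250 bases upstream of the RefSeq start, from the GRCm38.p6 sequence that carries the mm10 coordinates, written 5′ to 3′ along the gene's own strand. Capitals mark each CG dinucleotide and each match on this strand to 2 motifs. TATAAA is the core of a TATA box. The AP-1 site searched for is the run TGAGTCA. Apoe is on the minus strand and its window is chr7:19699189-19699438. The windows of Krtdap, chr7:30787655-30787904, of Prap1, chr7:140093146-140093395, and of Afp, chr5:90490464-90490713, are on the plus strand.
Apoe: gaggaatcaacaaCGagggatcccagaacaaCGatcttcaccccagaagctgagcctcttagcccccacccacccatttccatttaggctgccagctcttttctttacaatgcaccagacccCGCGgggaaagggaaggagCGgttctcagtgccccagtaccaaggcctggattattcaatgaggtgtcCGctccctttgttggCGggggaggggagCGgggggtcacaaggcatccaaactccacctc
Krtdap: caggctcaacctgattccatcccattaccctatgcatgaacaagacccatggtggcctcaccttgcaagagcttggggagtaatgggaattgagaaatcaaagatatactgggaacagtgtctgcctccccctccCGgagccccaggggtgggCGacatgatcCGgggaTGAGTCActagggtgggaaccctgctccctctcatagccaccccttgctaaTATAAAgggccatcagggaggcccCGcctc
Prap1: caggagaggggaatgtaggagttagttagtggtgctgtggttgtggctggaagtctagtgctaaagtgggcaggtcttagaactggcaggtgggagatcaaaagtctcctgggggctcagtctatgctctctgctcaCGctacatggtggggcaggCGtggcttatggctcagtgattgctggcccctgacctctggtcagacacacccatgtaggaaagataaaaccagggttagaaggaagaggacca
Afp: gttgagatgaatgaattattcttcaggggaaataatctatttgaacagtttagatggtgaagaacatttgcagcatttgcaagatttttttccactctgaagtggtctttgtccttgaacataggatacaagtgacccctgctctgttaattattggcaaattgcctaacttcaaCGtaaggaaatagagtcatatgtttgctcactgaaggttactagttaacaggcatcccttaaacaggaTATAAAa
The window of Apoe held 8 CG dinucleotides, that of Krtdap 4, that of Prap1 2 and that of Afp 1, beside a median of 6 over 32536 RefSeq windows of the same length. Apoe was thus above the median and the other members below it. GC content was lowest in Afp, at 36% beside a median of 52.4%. TATAAA lay 30 bases before the start of Krtdap and 7 bases before that of Afp, and TGAGTCA lay 81 bases before the start of Krtdap. Searched on both strands, TATAAA was in 12.3% of all windows and TGAGTCA in 4.45%. The octamer ATGCAAAT (1.62% of windows) and the GC box GGGCGG (33.0% of windows) were found in none of the printed windows. RefSeq lists further starts for Apoe, and the window of 1 of them, chr7:19698622-19698871, holds TATAAA on both strands.

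Apoe (chr7:19696244-19699188, mm10, minus strand) was the most abundant member in 7 of 8 libraries. Its level was 11.4 and 9.62 FPKM in female controls and 269 and 410 FPKM in female Snf5 CKO libraries. In males it was 17.1 and 16.8 FPKM in controls and 543 and 912 FPKM in Snf5 CKO libraries. All Snf5 CKO libraries were far above all control libraries of the same sex, and replicate 2 was the higher Snf5 CKO library in both sexes. The means were 10.5 ± 1.26 and 340 ± 99.7 FPKM in females (SD, n = 2), a ratio of 32.3, and 16.95 ± 0.166 and 728 ± 261 FPKM in males (SD, n = 2), a ratio of 42.9. The log2 difference was 4.86 (SE 0.24) in females, the 9th highest of 11520 genes tested, and 5.30 (SE 0.29) in males, the 8th highest of 12269. In bulk libraries a different share of a cell type and a different amount of RNA per cell cannot be told apart.

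Krtdap (chr7:30787905-30791091 in the female table and chr7:30786166-30791093 in the male table, plus strand) went from the edge of detection in controls to 1 of the most abundant transcripts of male Snf5 CKO cells. In females it was listed at 0.190 and 0 FPKM in controls and at 10.9 and 14.4 FPKM in Snf5 CKO libraries. In males it was at 0.696 and 0.931 FPKM in controls and at 353 and 636 FPKM in Snf5 CKO libraries. No control library of either sex reached 1 FPKM, and the male Snf5 CKO libraries were well above the female ones. The male means were 0.814 ± 0.166 and 495 ± 200 FPKM (SD, n = 2), a ratio of 608, and the log2 difference of 8.04 (SE 0.32) was the highest of all 12269 genes tested. Only 231 named loci had a higher mean in male Snf5 CKO libraries. In females the log2 difference was 3.63 (SE 0.22), 77th of 11520, and it rested on very few control fragments. The size of the smallest steps between low FPKM values gave about 1 and 0 Krtdap fragments in the female controls and 82 and 211 in the female Snf5 CKO libraries. The count of 0 allows up to 0.262 FPKM. In the male controls the same estimate was 4 and 11 fragments. Cufflinks also gave a lower and an upper bound for each FPKM value. For Krtdap the lower bound was 0 in both female Snf5 CKO libraries, so the bounds of the female groups overlapped. The tables drew the gene differently, with 1 transcript start in females and 3 in males, so the male locus can also take reads from upstream of the printed window.

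Prap1 (chr7:140093396-140097203, plus strand) was the member with the widest spread between controls. In females it was at 1.56 and 6.01 FPKM in controls and at 33.9 and 48.9 FPKM in Snf5 CKO libraries. In males it was at 1.75 and 2.70 FPKM in controls and at 85.0 and 116 FPKM in Snf5 CKO libraries. The female controls lay far apart, and the Cufflinks bounds of the female groups overlapped. The upper bound of female control replicate 2 was 14.5 FPKM, and the lower bounds of the female Snf5 CKO libraries were 1.22 and 1.15 FPKM. The means were 3.78 ± 3.15 and 41.4 ± 10.6 FPKM in females (SD, n = 2), a ratio of 10.9 that became 6.89 without control replicate 1 and 26.6 without control replicate 2, and 2.23 ± 0.674 and 100.5 ± 21.8 FPKM in males (SD, n = 2), a ratio of 45.1. The log2 difference was 3.30 (SE 0.45) in females, 104th of 11520, and 4.97 (SE 0.25) in males, 9th of 12269.

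Afp (chr5:90490714-90508907, plus strand) ran the other way, and in males alone was it above the floor of the libraries. In males it was at 15.9 and 20.0 FPKM in controls and at 0.204 and 0.726 FPKM in Snf5 CKO libraries. The control mean of 17.9 ± 2.95 FPKM (SD, n = 2) was 38.6 times the Snf5 CKO mean of 0.465 ± 0.370 FPKM (SD, n = 2), and the log2 difference of -3.71 (SE 0.26) was the 34th lowest of 12269. The ratio was 88.1 without Snf5 CKO replicate 2 and 24.7 without replicate 1. The estimated fragments were 707 and 1690 in the controls of that sex and 11 and 48 in its Snf5 CKO libraries, so the Snf5 CKO values are low but not empty. In females it was listed at 0.0476 and 0.0874 FPKM in controls and at 0.0382 and 0 FPKM in Snf5 CKO libraries, about 2, 7, 2 and 0 fragments. The last value allows up to 0.0296 FPKM. Female Afp did not pass the filter of a mean of 1 FPKM and no difference between the female groups was detectable at this depth. Apoe, Krtdap and Prap1 passed the filter in both sexes. Krtdap in each sex passed only through its Snf5 CKO libraries, and male Afp only through its controls. The differences and ranks of both therefore had to be large.

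**Figure D1:**
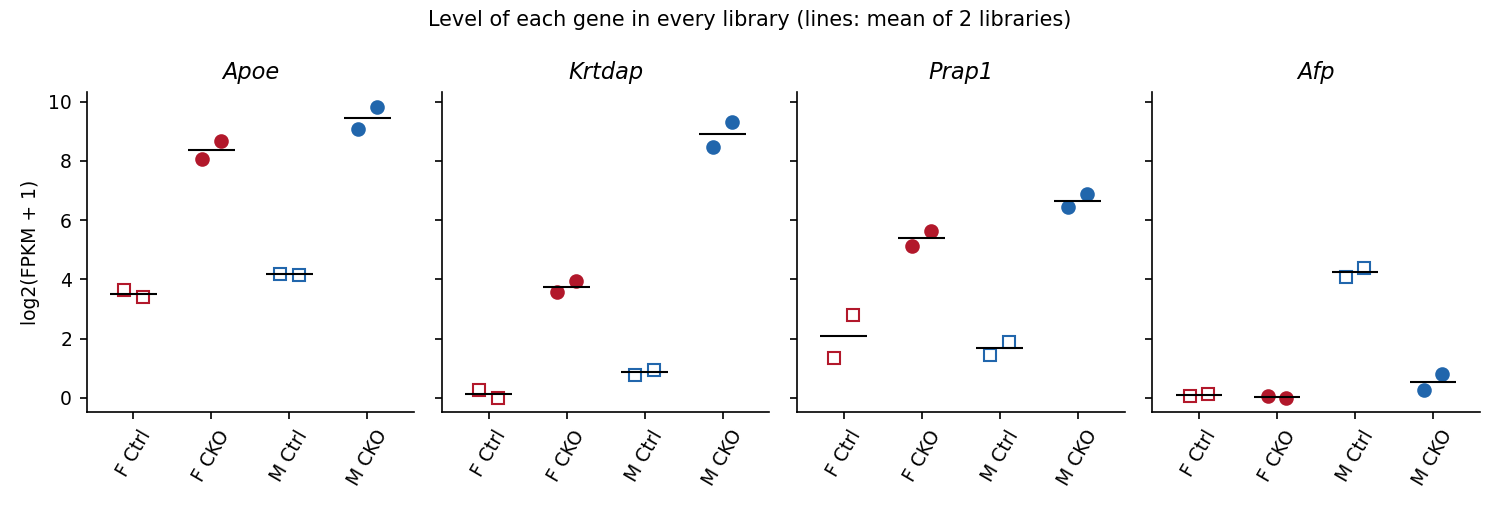
Level of each gene in every library as log2(FPKM + 1), with open squares for control (Ctrl) and filled circles for Snf5 CKO, F for female and M for male, and a line at the mean of the 2 libraries. Apoe, Krtdap and Prap1 lie higher in all Snf5 CKO libraries than in the controls of their sex, while Afp lies near 0 in all groups except male control.

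The order of the members within a library differed between the male groups, and in females only among levels near 0. FPKM is scaled by transcript length, so the levels can be set beside each other. In female Snf5 CKO libraries and in female control replicate 1 the order was Apoe, Prap1, Krtdap and Afp, with the last pair exchanged in control replicate 2, and in male Snf5 CKO libraries Apoe, Krtdap, Prap1 and Afp. Apoe was 24.8 and 28.6 times Krtdap in female Snf5 CKO replicates 1 and 2, and 1.54 and 1.43 times Krtdap in the male ones. The ratio of Apoe to Prap1 was alike across Snf5 CKO libraries, at 7.94 and 8.39 in females and 6.39 and 7.87 in males, and control libraries lay near these values at 7.32 in females and 9.75 and 6.23 in males, with female control replicate 2 apart at 1.60. In male controls Afp stood beside Apoe, below it in replicate 1 and above it in replicate 2.

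**Figure D2:**
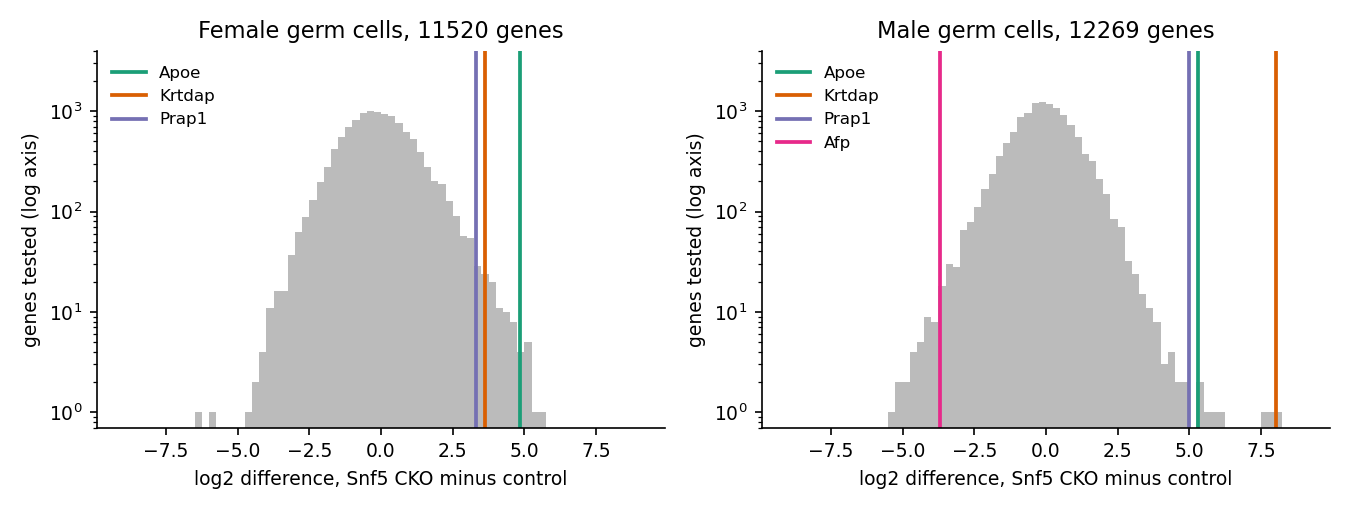
Histograms of the log2 difference, Snf5 CKO minus control, over all genes tested in each sex (gene numbers on a log axis), with vertical lines at the members that passed the filter. Male Krtdap stands at the far right of the distribution at 8.04, male Afp at -3.71 lies in the left tail, and female Afp was not tested.

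Each sex was tested over all named genes whose mean reached 1 FPKM, and a gene was called at a limma adjusted p under 0.05 with a log2 difference of at least 1 in size. By this rule 38.9% of female genes were called (17.3% higher and 21.6% lower in Snf5 CKO) and 31.8% of male genes (14.4% higher and 17.5% lower), which is the background for every count of called genes that follows. The median log2 difference of all genes was -0.13 in females and -0.07 in males. A gene with both libraries of 1 group under 1 FPKM passed the filter only through the other group, which favored a call on that side. Among such genes are female F2, Grhl3 and Etv2 and male Fgg, Trp63 and 5830473C10Rik. All rises and falls given as a number are log2 differences on the log2(FPKM + 1) scale.

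The lipoprotein genes, the carriers, receptors and transporters of lipid that work with Apoe, were called in both directions. In females 4 of 13 tested were higher (Apoc1, Clu, Pltp and Lrp8) and 3 lower (the Apoc2 row, Abca1 and Lrpap1), with a median log2 difference of 0.57. In males 4 of 16 tested were higher (Apoc1, Clu, Lpl and Lrpap1) and 4 lower (Apoc2, Apoh, Abca1 and Sort1), with a median of -0.02. Apoc1, an exchangeable apolipoprotein encoded next to Apoe, was at 9.72 and 17.4 FPKM in female controls and 159 and 249 FPKM in female Snf5 CKO libraries, and its log2 difference was 3.83 (limma, adjusted p = 0.000172) in females and 2.25 (limma, adjusted p = 0.00961) in males. Clu, a secreted apolipoprotein also known as clusterin, rose by 1.96 (limma, adjusted p = 0.00337) in females and 2.19 (limma, adjusted p = 0.00299) in males, and its male level of 272 and 325 FPKM in Snf5 CKO libraries was below that of Apoe in the same libraries. Abca1, which loads cellular cholesterol onto apolipoproteins, fell in both sexes, with log2 differences of -1.91 (limma, adjusted p = 0.00353) and -1.78 (limma, adjusted p = 0.0114). Lrpap1, a chaperone of lipoprotein receptors, had a log2 difference of -1.13 in females (limma, adjusted p = 0.00207) and 1.63 in males (limma, adjusted p = 0.00309). The female call of Lrpap1 was lost by median-of-ratios rescaling, and the male call of Sort1 without control replicate 1 or Snf5 CKO replicate 2.

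The epidermal differentiation genes that accompany Krtdap in keratinocytes were called higher at about the share of all genes. In females 5 of 17 listed genes could be tested, 1 was higher and 2 lower, and 6 were at 0 in every library, among them the keratins Krt1 and Krt14. In males 7 of 17 could be tested, 1 was higher and 2 lower. Dmkn, the nearest gene to Krtdap and itself a secreted epidermal protein, was at 2.44 and 4.42 FPKM in male controls and 11.1 and 17.4 FPKM in male Snf5 CKO libraries, a log2 difference of 1.79 (limma, adjusted p = 0.0116). Grhl3, a transcription factor of epidermal barrier formation, was at 0.191 and 0.229 FPKM in female controls and 17.5 and 17.9 FPKM in female Snf5 CKO libraries, a log2 difference of 3.95 (limma, adjusted p = 9.57e-05). In males it was lower, at 17.3 and 14.6 FPKM against 3.58 and 4.01 FPKM, a log2 difference of -1.82 (limma, adjusted p = 0.00307). Krt10, a keratin of the upper epidermal layers, and Tgm1, which cross-links the cornified envelope, fell in females with log2 differences of -2.36 (limma, adjusted p = 0.00476) and -1.81 (limma, adjusted p = 0.000888). Trp63, the regulator of basal keratinocytes, fell in males by 1.16 on the log2 scale (limma, adjusted p = 0.00528).

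Of the gut epithelial genes, set beside Prap1, 3 of 4 tested in females were higher and none lower, and 1 of 2 in males was higher. Cdx2, a regulator of intestinal and caudal identity, was at 3.38 and 3.64 FPKM in female controls and 102 and 77.4 FPKM in female Snf5 CKO libraries, a log2 difference of 4.32 (limma, adjusted p = 9.57e-05). Its relative Cdx1 rose by 2.42 (limma, adjusted p = 0.000133). Epcam, an epithelial adhesion protein that germ cells also carry, rose by 1.10 in females (limma, adjusted p = 0.00322) and 1.18 in males (limma, adjusted p = 0.00751), and the female call was lost without Snf5 CKO replicate 1 and the male call with a common sum. The absorptive genes Fabp1 and Fabp2 were at 0 in every female library.

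The albumin family and other serum protein genes were lower wherever they were called. In females the 3 tested were all lower, Gc (vitamin D binding protein), Rbp4 (retinol carrier) and F2 (prothrombin), with a median log2 difference of -1.92. In males 3 of 5 tested were lower, Rbp4, Ahsg and Fgg. Female F2 and male Fgg passed the filter only through their controls, which favored a lower call. Rbp4 was at 9.57 and 16.7 FPKM against 1.63 and 1.66 FPKM in males, a log2 difference of -2.37 (limma, adjusted p = 0.0041), and fell by 1.92 in females (limma, adjusted p = 0.00179). Ahsg, fetuin-A, fell by 1.46 in males (limma, adjusted p = 0.00475), and Fgg, a fibrinogen chain, was at 2.16 and 2.38 FPKM in male controls and listed at 0 in both Snf5 CKO libraries (limma, adjusted p = 0.00247). Gc, which lies on the same chromosome as Afp, was at 105 and 57.6 FPKM in female controls and 12.8 and 21.3 FPKM in female Snf5 CKO libraries, a log2 difference of -2.17 (limma, adjusted p = 0.0017). Alb was at most 0.0598 FPKM in any library, so the albumin gene itself did not accompany Afp in male controls.

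Of 11 known regulators of Afp, 3 could be tested in males and 2 in females. Trp53, which encodes p53, rose in both sexes, from 3.49 and 5.30 FPKM to 92.5 and 126 FPKM in females (log2 difference 4.36, limma, adjusted p = 9.57e-05) and from 27.0 and 28.3 FPKM to 176 and 197 FPKM in males (2.71, limma, adjusted p = 0.00212). Zbtb20, a repressor of Afp in liver, fell by 1.72 in males (limma, adjusted p = 0.00948), from 22.8 and 16.7 FPKM to 6.79 and 4.03 FPKM. Cebpa, an activator in liver, fell by 1.03 in males (limma, adjusted p = 0.023), a call lost by median-of-ratios rescaling and without male control replicate 1 or male Snf5 CKO replicate 1. The extraembryonic endoderm genes, set beside Afp as the yolk sac's own, had no call among 8 tested in females. In males 2 of 8 were higher, Gata4 and Sparc, and 2 lower, Lamb1 and Pdgfra. Sparc, a matrix protein, was at 30.6 and 19.8 FPKM in male controls and 96.9 and 109 FPKM in male Snf5 CKO libraries (log2 difference 2.02, limma, adjusted p = 0.00416). Lamb1, a laminin chain, fell by 2.41 (limma, adjusted p = 0.00521) and the endoderm factor Gata4, also a factor of gonadal somatic cells, rose by 1.81 (limma, adjusted p = 0.0111). Pdgfra, on a row shared with Mir7025, fell by 1.09 (limma, adjusted p = 0.0304), a call lost without male control replicate 1 or male Snf5 CKO replicate 2.

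**Figure D3:**
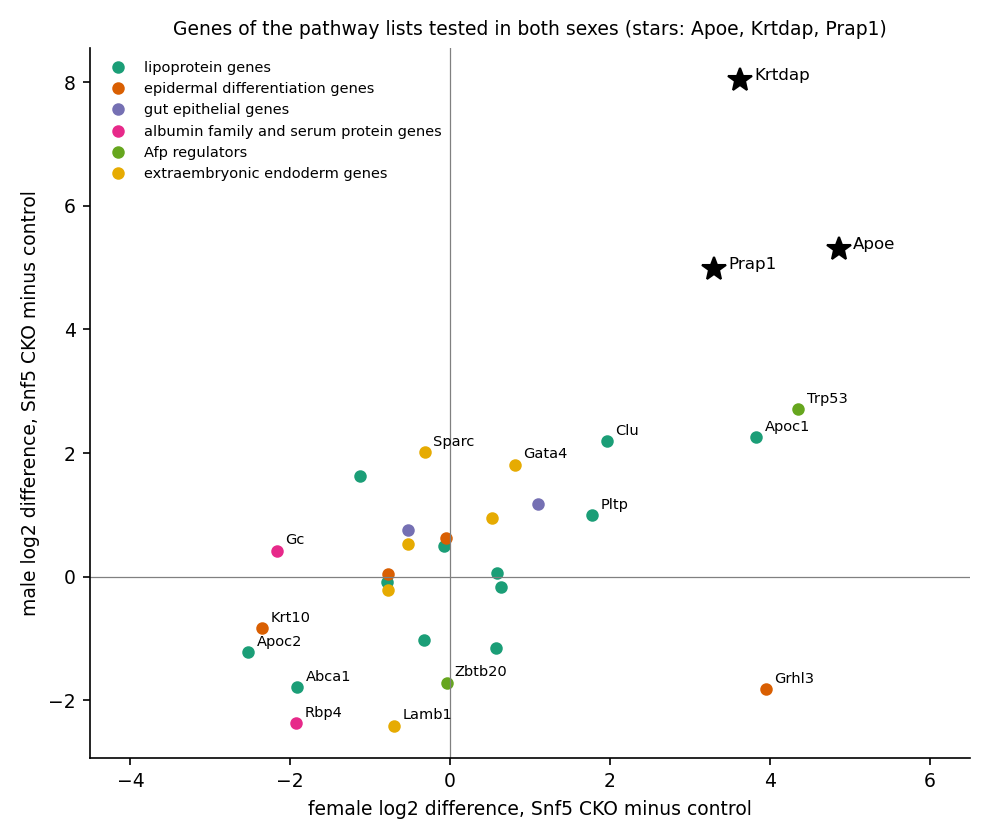
Log2 difference, Snf5 CKO minus control, in females (horizontal axis) and males (vertical axis) for the 28 genes of the pathway lists tested in both sexes, colored by list, with stars at Apoe, Krtdap and Prap1. The stars lie at the upper right, above Apoc1 and Trp53, while Grhl3 lies at 3.95 in females and -1.82 in males.

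Germ cell markers were the highest of the marker lists in every library, and markers of some other gonadal cells moved with Apoe, Krtdap and Prap1. The summed level of 8 germ cell markers was 3323 and 3512 FPKM in female controls and 3147 and 3380 FPKM in female Snf5 CKO libraries, and ranged from 4526 to 5564 FPKM in males. Of these 8, 4 were called higher and 2 lower in females, and 1 higher and 3 lower in males. The female sum held opposite changes. Dppa3 was at 41.2 and 61.3 FPKM in female controls against 1406 and 1632.5 FPKM in female Snf5 CKO libraries. Pou5f1, which is Oct4, was at 8.63 and 16.7 against 295 and 333 FPKM, and Kit and Dnd1 were also higher. Tex101 was at 1452 and 1599 against 158 and 216 FPKM, and Mael was also lower. The summed level of 8 Sertoli cell markers was 138 and 108 FPKM in male controls and 608 and 914 FPKM in male Snf5 CKO libraries, and all 7 tested were higher. Among them Amh, the anti-Müllerian hormone, was at 17.3 and 16.5 FPKM against 69.7 and 119.5 FPKM (log2 difference 2.37, limma, adjusted p = 0.00397) and Sox9 rose by 1.71 (limma, adjusted p = 0.00317). The ratio of the summed Sertoli level between the male groups was 6.17, beside 42.9 for Apoe, 608 for Krtdap and 45.1 for Prap1. In females the sum was 5.17 and 6.88 FPKM against 12.3 and 13.1 FPKM. Pre-granulosa markers summed to 7.50 and 11.6 FPKM in female controls and 34.0 and 31.4 FPKM in female Snf5 CKO libraries, with 4 of 7 tested higher, and in males to 13.3 and 11.5 FPKM against 60.5 and 67.0 FPKM. The part of these cells in the members' levels was not tested.

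Macrophage markers, relevant to Apoe, summed to 4.03 and 2.05 FPKM in female controls and 12.2 and 10.5 FPKM in female Snf5 CKO libraries, and to 12.8 and 20.0 FPKM against 11.9 and 28.5 FPKM in males. The sum was thus at most 12.2 FPKM in females and 28.5 FPKM in males, and Apoe reached 410 and 912 FPKM. The level of Apoe within macrophages was not measured here. C1qb, a complement subunit, was called higher in females, at 0.793 and 0.0271 FPKM against 2.50 and 1.60 FPKM (log2 difference 1.15, limma, adjusted p = 0.0155), a call lost without control replicate 2 or Snf5 CKO replicate 1. In males 3 of 6 tested were called higher, C1qb, C1qc and Lyz2, and 0 lower. The C1qb call was lost without male control replicate 1 and the C1qc call without either control or without Snf5 CKO replicate 2. Lyz2 was at 0.248 and 0 FPKM in male controls against 1.75 and 2.07 FPKM. The male control sum was mostly Cd68 and Fcer1g, which were not called. Cd68 was at 5.66 and 7.58 FPKM against 3.91 and 5.70 FPKM, and Fcer1g at 6.14 and 11.3 against 0.897 and 5.09 FPKM. The part of macrophages in the Apoe values was not tested. The keratinocyte genes Krt5, Krt14 and Krt1 were at or near 0 in every library, at most 0.144 FPKM, and Krtdap reached 636 FPKM. The part of keratinocytes in the Krtdap values was not tested. The sum of all 8 keratinocyte markers, mostly Krt10 in females, was 64.5 and 45.5 FPKM in female controls against 9.87 and 20.2 FPKM, and 28.2 and 47.5 FPKM in male controls against 26.5 and 45.7 FPKM. Of the 8 hepatocyte genes listed, Alb, Ttr, Fgb and Serpina1a were at most 0.0598 FPKM in any library, where Afp reached 20.0 FPKM. The other 4, Apoa1, Apoa2, Ahsg and Trf, could be tested in males. In male controls Apoa1 was at 0.648 and 3.55 FPKM, Apoa2 at 4.25 and 4.57 FPKM and Ahsg at 3.96 and 5.09 FPKM. Trf was above 1 FPKM in both male controls. The part of hepatocytes in the Afp values was not tested. In males, genes of Leydig cells (124.6 and 117 FPKM summed in controls, 52.4 and 69.3 FPKM in Snf5 CKO) and of stroma (20.9 and 11.2 against 4.13 and 2.88 FPKM) moved in the direction of Afp, with 3 and 2 called lower, but the Leydig list also had Nr5a1 called higher, at 3.76 and 2.08 FPKM against 10.5 and 12.1 FPKM (log2 difference 1.68, limma, adjusted p = 0.00801). Their part in the Afp values was not tested. Erythroid and endothelial genes summed to 26.0 and 99.8 FPKM in female controls against 28.0 and 84.7 FPKM, and to 68.3 and 107 FPKM against 63.7 and 67.9 FPKM in males, and hepatocyte genes in males to 12.7 and 15.5 FPKM against 5.49 and 10.9 FPKM, with Ahsg called lower. The endothelial gene Pecam1 was called higher in females (log2 difference 2.23, limma, adjusted p = 0.000198), at 4.10 and 3.65 FPKM against 24.3 and 19.7 FPKM. In males Tek was called lower (-1.16, limma, adjusted p = 0.00599).

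**Figure D4:**
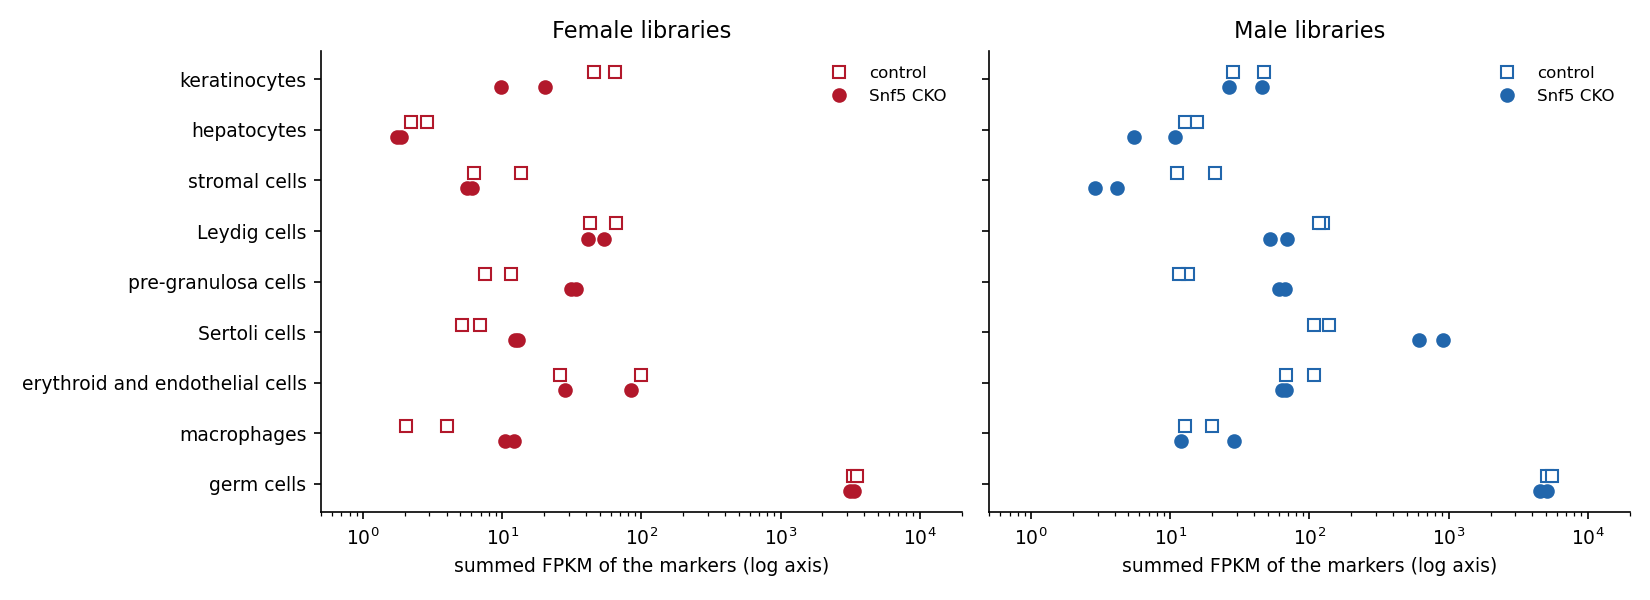
Summed FPKM (log axis) of each marker list in every library, open squares for control and filled circles for Snf5 CKO. Germ cell markers are highest in all libraries, the Sertoli sum in males is 608 and 914 FPKM in Snf5 CKO beside 138 and 108 FPKM in control, and the hepatocyte sums stay below 20.0 FPKM.

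Genes within 200 kb of the members were compared to see whether the difference stopped at the member. In females 12 of 35 tested neighbors were higher and 4 lower, and in males 16 of 38 were higher and 4 lower. Of the tested neighbors of Prap1, 5 of 10 in females and 7 of 11 in males were higher and 1 in each sex was lower, with medians of 1.09 and 1.37 on the log2 scale. Fuom, a fucose mutarotase 0.612 kb away, was at 0.252 and 0.441 FPKM in female controls and 4.17 and 5.08 FPKM in female Snf5 CKO libraries (log2 difference 2.06, limma, adjusted p = 0.000278), and rose by 2.65 in males (limma, adjusted p = 0.00224). Caly, on the other side, rose by 1.31 in females (limma, adjusted p = 0.00346) and by 3.66 in males (limma, adjusted p = 0.00237), from 0.979 and 1.97 FPKM to 23.7 and 36.8 FPKM. Echs1, a mitochondrial enzyme of fatty acid oxidation, rose by 2.64 in females (limma, adjusted p = 0.000105) and 1.63 in males (limma, adjusted p = 0.00269). Zfp511 rose in both sexes and Tubgcp2 in males, but both rows carry the same locus bounds, so reads of 1 may be counted for the other, and the female Zfp511 call was lost without Snf5 CKO replicate 2. The run of higher genes was not unbroken. 6430531B16Rik was lower in females, a call lost by median-of-ratios rescaling and without control replicate 1 or Snf5 CKO replicate 1. Utf1, a pluripotency-associated chromatin factor, was higher in females (2.79, limma, adjusted p = 0.000678) and lower in males (-1.20, limma, adjusted p = 0.0251), the male call being lost when any 1 library was left out. Adam8 and the row labelled Mir202 and Mir7686 were higher in males, at most 2.91 FPKM, and the Adam8 call was lost without control replicate 2 or Snf5 CKO replicate 1.

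Around Apoe the apolipoprotein genes parted. Apoc1, 3.59 kb away, rose as described above, while Apoc2, an activator of lipoprotein lipase in the same cluster, was lower. In females the row merges Apoc2 with Apoc4 and was at 31.6 and 15.6 FPKM against 2.50 and 3.66 FPKM (log2 difference -2.52, limma, adjusted p = 0.000916), and in males Apoc2 was at 15.6 and 23.7 FPKM against 8.73 and 6.67 FPKM (-1.23, limma, adjusted p = 0.0186), a call lost without control replicate 2. Tomm40, on the other side of Apoe, rose in females by 1.67 (limma, adjusted p = 0.000491) and had a log2 difference of 0.05 in males (limma, adjusted p = 0.858), at 104 and 124 FPKM against 108 and 128 FPKM. Pvrl2, which encodes nectin-2, rose in both sexes, by 3.49 in females (limma, adjusted p = 9.57e-05) and 1.30 in males (limma, adjusted p = 0.00405). Bcam, a laminin receptor, was lower in females (-1.03) and higher in males (1.54), and the female call was lost by median-of-ratios rescaling and without control replicate 2 or Snf5 CKO replicate 1. Zfp296, a zinc finger gene active in pluripotent cells, rose in both sexes, the male call being lost without control replicate 1, and Trappc6a was higher in males, a call lost without control replicate 1 or Snf5 CKO replicate 2. Both male calls were also lost with a common sum.

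Around Krtdap, Sbsn was not called in either sex. Sbsn, the third gene of the cluster, was at 9.38 and 9.29 FPKM in female controls and 4.93 and 5.15 FPKM in female Snf5 CKO libraries. This female difference of -0.775 (limma, adjusted p = 0.00888) was opposite to that of Krtdap and missed a call only by the fold threshold. In males Sbsn was at 7.68 and 6.94 FPKM against 7.09 and 7.98 FPKM (log2 difference 0.04, limma, adjusted p = 0.883). Dmkn in females was below the filter, at 0.0984 and 0.0397 FPKM against 0.417 and 0.754 FPKM. Of 10 tested neighbors in females, 3 were higher and 1 lower, and of 13 in males 4 were higher. Etv2, a factor of blood and vessel formation, was at 0 and 0.735 FPKM in female controls and 18.3 and 28.7 FPKM in female Snf5 CKO libraries (log2 difference 4.19, limma, adjusted p = 0.00015). Lsr, a lipoprotein receptor of epithelial junctions, rose in both sexes, by 2.03 and 1.05, the male call being lost with a common sum and without Snf5 CKO replicate 2. Hamp2 and Usf2 were higher in males, at most 5.91 FPKM. The female calls of Cox6b1 and Tmem147 lay at the fold threshold (1.01 and -1.01), and each was lost when certain single libraries were left out, either control or Snf5 CKO replicate 2 for Cox6b1 and control replicate 2 or Snf5 CKO replicate 1 for Tmem147. The Tmem147 call was also lost under both rescalings.

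Around Afp, its relatives Alb and Afm were at or near 0 in every library. Both neighbors tested in males were lower. 5830473C10Rik, a further member of the albumin family in the same cluster, was at 2.08 and 3.83 FPKM in male controls and 0.122 and 0.148 FPKM in male Snf5 CKO libraries (log2 difference -1.77, limma, adjusted p = 0.00608). Ankrd17, 124.5 kb away, fell by 1.20 (limma, adjusted p = 0.00852), from 26.7 and 22.4 FPKM to 11.1 and 9.15 FPKM.

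**Figure D5:**
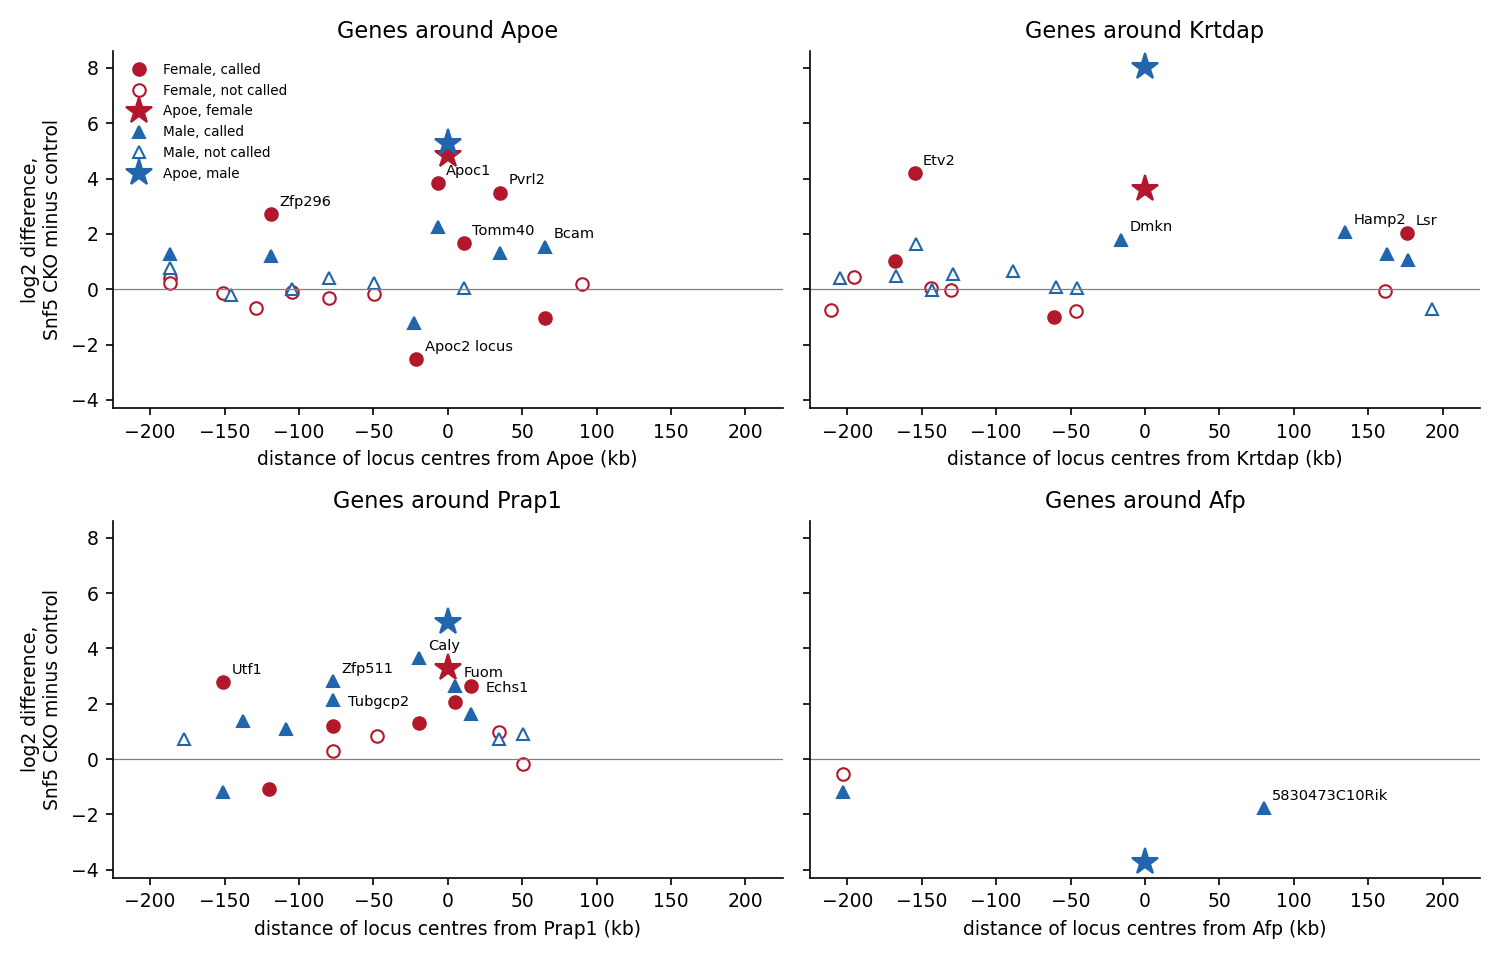
Log2 difference, Snf5 CKO minus control, of each tested gene within 200 kb against the distance between locus centers in kb, with filled symbols for called genes and stars for the members. Around Prap1 most symbols lie above 0, around Apoe the Apoc2 locus lies below 0 beside Apoc1, and around Afp few genes were expressed.

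The genes most like each member were found by the root mean square distance between profiles of log2(FPKM + 1) over the 8 libraries, centered within each table, among 10463 genes. The likeness uses the same libraries that chose the members and is given as a description. Rhox9, an X-linked homeobox gene of the reproductive tract and germ line, was the nearest to Prap1 (distance 0.356, beside a median of 2.22 over all genes) and to Krtdap (0.967, beside 3.18), and the third nearest to Apoe (0.672, beside 2.61). It was at 67.9 and 88.2 FPKM in female controls and 628 and 690 FPKM in female Snf5 CKO libraries, and at 3.94 and 4.06 FPKM against 195 and 237 FPKM in males. Apoe was nearest to Cldn3, a tight junction protein (0.549), and to Car14, a carbonic anhydrase (0.632). Cldn3 was at 0.213 and 0.265 FPKM in female controls against 34.7 and 50.3 FPKM, and at 1.43 and 1.87 FPKM in male controls against 31.0 and 41.7 FPKM. Prap1 was next like the growth factor gene Fgf17 (0.449) and Rhox6 (0.534). After Rhox9, Krtdap was most like Apoe (1.07) and Prap1 (1.18), members chosen with it for their difference in these same libraries. Afp was nearest to the non-coding RNA 4921531P14Rik (0.207, beside a median of 1.38), the collagen gene Col22a1 (0.262) and the adaptor gene Apba2 (0.262). Apba2 showed the same shape as Afp, at 33.7 and 31.0 FPKM in male controls and 1.25 and 1.12 FPKM in male Snf5 CKO libraries, and between 0.710 and 1.75 FPKM in all female libraries.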

How the data were processed

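RNA-Seq was made from total RNA of sorted germ cells with SMART-Seq v4 and Nextera XT, and read paired-end. The authors mapped reads with TopHat2 and made the deposited FPKM values, fragments scaled by length and depth, with the Cufflinks and Cuffdiff tools on mm10. The sources used here give differing versions of these tools. The gene annotation, the library-size normalization and the use of strand were not given in the sources used here. The 2 tables, 1 for each sex with 4 libraries each, hold no counts. The 8 samples were grouped by their labels.

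A gene with several rows was represented by the row with the highest mean FPKM. Genes whose mean reached 1 FPKM were fitted within each sex with limma 3.58.1 in R 4.3.3 on log2(FPKM + 1), with eBayes and a trend, and p-values were adjusted by Benjamini-Hochberg over all genes tested. With 2 libraries in each group the SE of a single gene leans on all genes. The p-values measure the spread between these libraries. On simulated data the fit recovered 162 of 200 changed genes, with 4 false calls. The simulation held only large changes in genes well above the filter, and a far smaller share of changed genes than was called here. Its noise was independent between libraries, so its number of false calls does not carry over to these data. Table starts were counted from 0, so 1 was added. Depth was estimated, after the values had been seen, from the steps between low FPKM values of long genes, and came to between 22400000 and 54400000 fragments a library, with 69.9% to 81.7% of low values within 0.1 of a whole step. Loci that carry a gene name held 57.9% to 94.5% of a library's summed FPKM.

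A gene of the lipoprotein list is not reported here and was left out of its counts. The members and the gene lists were chosen with earlier results of these data known. Named genes are the members, Smarcb1, the 3 genes most like each member, up to 4 called genes of each pathway list and sex with the largest differences, the nearest and the called genes within 200 kb, and the first 3 and any called markers of each list. Not all of these markers are written out in the text above. The other called genes of the pathway lists, Sbsn, Fcer1g and the further hepatocyte markers were added after their values were seen. The main fit had no batch term, and the labels name no batch. Replicate numbers were taken as a shared batch only in an alternative fit. The reason was that the labels name the raw files of replicates 1 and 2 in different styles. The deviations of replicate 2 from replicate 1 in control and Snf5 CKO correlated at 0.50 in females and 0.61 in males across genes. As alternatives, the pseudocount was set to 0.1, the filter dropped or raised to 5 FPKM, and the fit repeated after rescaling to a common sum or by median of ratios, with summed rows, with the replicate block and without each library in turn. Promoter windows and motifs came from RefSeq on GRCm38.p6. No protein sequence was used here.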

Additional observations from a re-analysis of the deposited data

Results flagged for a closer look

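Several named genes were on opposite sides in females and males, with every library of each sex on its side, but the tables were normalized separately and the difference between the sexes was not tested. The log2 difference, Snf5 CKO minus control, of Grhl3 was 3.95 in females and -1.82 in males. That of Bcam, a neighbor of Apoe, was -1.03 and 1.54. That of Utf1, a neighbor of Prap1, was 2.79 and -1.20, and that of Dnd1, a gene of the germ cell marker list, was 4.39 and -1.78. That of Insl3, on a row merged with Jak3 and a marker of Leydig cells, was 1.18 and -1.66. That of Sparc was -0.31 and 2.02, that of Lrpap1 -1.13 and 1.63, and that of Apoh, a serum apolipoprotein, 0.57 and -1.16. That of 4921531P14Rik, the gene most like Afp, was 0.32 and -3.90.

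A locus without a gene name, 199 kb from Apoe at chr7:19469977-19496760, was outside all comparisons. In males it was at 2 and 1.74 FPKM in controls and 3.81 and 6.53 FPKM in Snf5 CKO libraries, so that both Snf5 CKO libraries lay above both controls.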

How the results depend on the processing

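The direction of the difference held under all alternatives and with each library left out for Apoe, Krtdap and Prap1, and for male Afp. The members were chosen by their levels in these same libraries, so this is a description and no support. Female Afp stayed slightly below 0, at levels where no difference was detectable. With a pseudocount of 0.1 the log2 difference of Krtdap went to 6.21 in females and 9.03 in males, that of Prap1 in males to 5.45 and that of Afp to -0.50 in females and -5.16 in males, since a smaller constant compresses low values less. With 1 library left out, Apoe ranged from 4.56 to 5.16 in females and 4.92 to 5.67 in males, Krtdap from 3.44 to 3.82 and 7.61 to 8.46, Prap1 from 2.57 to 4.03 and 4.75 to 5.19, and Afp from -0.09 to -0.04 and -3.97 to -3.45.

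Without the filter on low values, calls in the pathway lists on the lower side went from 8 to 3 in females and from 13 to 6 in males, calls among neighbors on the lower side from 4 to 1 in each sex, neighbors higher in males from 16 to 9, and genes higher in males from 1761 to 1100. The cause was not tested. With a filter at a mean of 5 FPKM, which tests fewer genes, neighbors on the lower side went to 2 in females, neighbors higher in males to 10, genes lower in males from 2141 to 1347 and pathway genes lower in males to 7. Median-of-ratios rescaling left 1 lower neighbor in females. With 1 library left out, neighbors on the lower side ranged from 1 to 4 in females and from 2 to 3 in males. The split of higher and lower calls over all genes was 1992 and 2488 in females, against 2292 and 2076 by median of ratios, and 1761 and 2141 in males, against 1303 and 2441 with a common sum and 2112 and 1794 by median of ratios.

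With the replicate block, which pairs the libraries by number, 2008 female genes were higher and 2497 lower, and 1848 and 2216 in males. The block changed no call of a named gene. Counting each named gene other than the members once for each sex, 78 of 132 kept their call under every alternative, 54 did not, and 0 were reversed. Without the filter 20 calls were lost in females and 30 in males. Low levels of Krtdap in controls and of Afp in females rest on few fragments, which limits the size of their ratios.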
